A study of Rattus norvegicus with 9 samples.

Results

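The genes described here are 9 genes used to tell conventional dendritic cell (cDC) subsets apart, measured in rat bone marrow-derived dendritic cells (BMDCs). The list was given by name: Irf8, Itgae, Naaa and Wdfy4 as genes of type 1 cDCs (cDC1), set against Itgam, Itgax, Nfil3, Glipr2 and Ifi30. The gene table held 32545 Ensembl gene IDs, and all 9 genes were found in it through the symbols that the study pairs with its IDs. All 9 were also among the 12602 genes that passed the filter on low counts. They were not chosen blind, since the study pairs a symbol only with genes it called between the lipid-treated and the vehicle cells.

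BMDCs were grown for 7 days with GM-CSF and FLT3L from bone marrow progenitors of wild-type Sprague-Dawley rats, 8 to 12 weeks old. On day 7 they were kept for 6 h, at 1000000 cells per well, with 1 of 3 additions. TL cells received total lipids (TLs) extracted from the gut symbiont L. johnsonii N6.2 at 600 ng/mL, suspended in PBS. α-GalCer cells received 100 ng/mL of that synthetic glycolipid, known to be presented by CD1d to invariant NKT cells, dissolved in DMSO and diluted in PBS. The vehicle cells received DMSO in PBS. TLs were thus the only addition without DMSO, so that lipids and missing DMSO cannot be told apart here. Each group had 3 libraries, described by the study as independent assays. The labels do not say that they came from separate animals, so p-values measure the spread between libraries. The harvested cells were the loosely adherent and nonadherent ones, and the study checked their purity with an antibody against CD11b/c, the products of Itgam and Itgax, so its gate does not separate cDC1 from cDC2 or from other myeloid cells.

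cDC1 and cDC2 are the main branches of conventional dendritic cells. cDC1 depend on the transcription factor IRF8, take up dead cells and present their antigens on MHC class I to CD8 T cells, which is known as cross-presentation. cDC2 carry the integrin CD11b, depend less on IRF8 and mostly prime CD4 T cells. Most of this is known from mice and humans, and cultures with GM-CSF also yield macrophage-like cells in mice.

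Libraries held between 15190820 and 20591105 counts. Levels are given as CPM (counts scaled to a common library total) after TMM scaling, and a count of 0 in a library allows up to 3 counts, which is 0.146 to 0.197 CPM. On the first principal component of log2 CPM (54.1% of the variance) the TL libraries lay between −45.6 and −44.8 and the other 6 between 20.8 and 25.1. Vehicle replicate 2 stood apart on the second component (9.72%), at −32.6 against 15.6 and 14.9 for the other vehicle libraries. Its distance from those libraries in the genes described here was −0.44 (log2 CPM) for Wdfy4, 0.35 for Ifi30, −0.26 for Itgam and 0.21 for Itgae, and between −0.12 and 0.12 for the others. A gene was called a DEG at the study's thresholds, an adjusted p below 0.01 and an absolute log2 fold change (log2FC) above 0.3, here with edgeR's quasi-likelihood F-test and Benjamini-Hochberg adjustment over all genes tested.

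With TLs all 4 cDC1 genes fell against the vehicle control, with log2 fold changes from −0.30 (Irf8) to −1.28 (Naaa), while Itgam, Itgax, Nfil3 and Glipr2 rose, by between 41.8% (Nfil3) and 75.9% (Glipr2). Ifi30 fell by 34.7%. All 9 were DEGs in this comparison and in all 9 the TL and vehicle libraries did not overlap. Over all genes tested, 19.4% were DEGs (9.77% higher and 9.67% lower) and 46.1% did not overlap. Among the 1839 tested genes that carry a symbol in the study's list of called genes, 76.6% were DEGs here, and that is the share the 9 of 9 should be read against. Shares without overlap, here and below, are over all genes tested. They are thus no matched background for genes that the study had called. In bulk RNA, fewer cells of a type and less RNA per cell cannot be told apart, and this holds for every gene below.

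**Figure D1:**
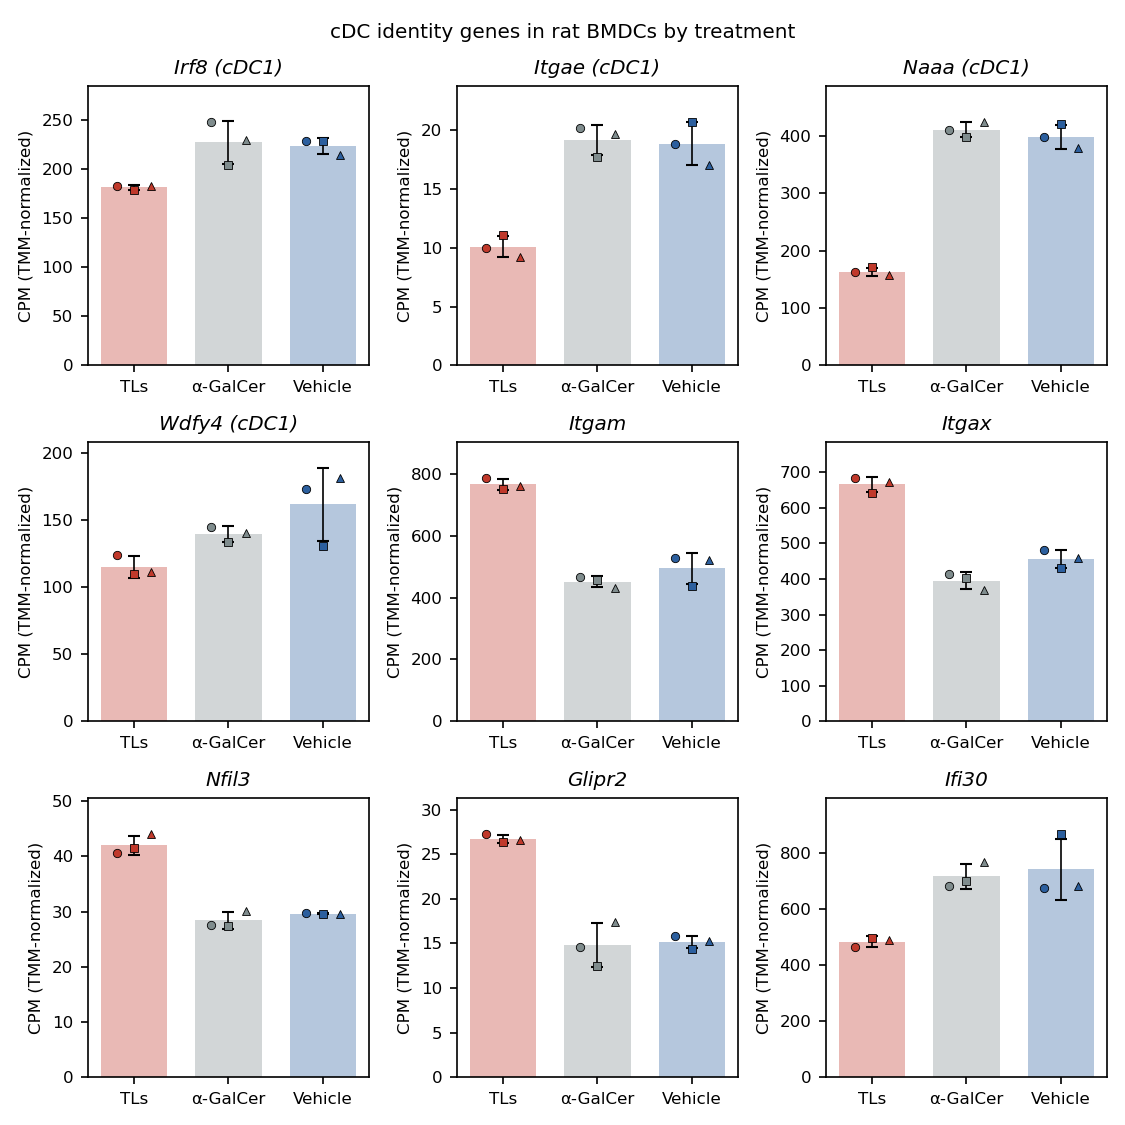
Level of the 9 genes in CPM (vertical axis, starting at 0, its own scale for each gene) with TLs (red), α-GalCer (grey) and vehicle (blue); bars are means, error bars the SD of 3 libraries, and circles, squares and triangles are replicates 1, 2 and 3. The TL libraries sit below all others for Irf8, Itgae, Naaa, Wdfy4 and Ifi30 and above all others for Itgam, Itgax, Nfil3 and Glipr2.

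Irf8 encodes the interferon regulatory factor that cDC1 need to develop and to keep their identity. Its level was 183.3, 178.9 and 182.8 CPM with TLs, 247.6, 204.4 and 229.9 CPM with α-GalCer and 228.4, 229.1 and 214.4 CPM with vehicle. The TL libraries lay close together and below every other library. The log2FC of TLs over vehicle was −0.30 ± 0.0694 (SE, edgeR adjusted p = 0.00659), at the edge of the fold threshold. Irf8 was called with TLs over α-GalCer too, at −0.32 ± 0.0694 (edgeR adjusted p = 0.00429). Of all genes tested, 23.2% had a larger fall than Irf8 against vehicle. The call against vehicle was lost in 12 of 18 alternatives, namely leaving out any TL or vehicle library or α-GalCer replicate 2 or 3, RLE scaling, DESeq2, a stricter filter (10 or more counts in all 9 libraries) and the fit to only the 6 libraries compared. Over all 18 its log2FC lay between −0.37 and −0.29 and its adjusted p (edgeR, DESeq2 or limma) between 0.000992 and 0.0302. Against α-GalCer the call was lost in 5, without any TL library and without α-GalCer replicate 1 or 3, at edgeR adjusted p values of 0.0161 to 0.0213.

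Naaa, which encodes a lysosomal amidase that breaks down fatty acid ethanolamides such as palmitoylethanolamide, had the largest fall of the 9 genes. It had 162.6, 171.1 and 157.2 CPM with TLs, 410.5, 397.8 and 423.4 CPM with α-GalCer and 397.8, 420.1 and 378.0 CPM with vehicle. The highest TL library, at 171.1 CPM, was far below the lowest library of the other groups, at 378.0 CPM. The log2FC was −1.28 ± 0.059 over vehicle (edgeR adjusted p = 4.81e-08) and −1.33 ± 0.059 over α-GalCer (edgeR adjusted p = 3.79e-08). A larger fall against vehicle was seen in 1.9% of all genes tested.

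Itgae encodes CD103, the integrin αE chain, which pairs with the β7 chain to bind E-cadherin on epithelial cells and marks cDC1 in many mouse tissues. It had 487 counts over the TL libraries, 1034 over the α-GalCer libraries and 984 over the vehicle libraries. By reads it was the least abundant of the 9 with TLs. In the other groups Glipr2 had fewer, 801 counts with α-GalCer and 792 with vehicle. Its level was 9.98, 11.1 and 9.25 CPM with TLs, 20.2, 17.7 and 19.7 CPM with α-GalCer and 18.8, 20.7 and 17.0 CPM with vehicle. No TL library reached the range of the others. The log2FC was −0.90 ± 0.113 over vehicle (edgeR adjusted p = 0.000125) and −0.92 ± 0.113 over α-GalCer (edgeR adjusted p = 9.69e-05). In the RefSeq annotation (GRCr8) Haspin lies within the bounds of Itgae, and the strand setting of the counting is not given, so reads of both genes may not be told apart.

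Wdfy4 encodes a BEACH domain protein that cDC1 of mice need to cross-present cell-associated antigen. It had 124.2, 109.7 and 111.3 CPM with TLs, 145.0, 133.6 and 140.7 CPM with α-GalCer and 173.7, 131.0 and 181.2 CPM with vehicle. TL libraries were below all others, but vehicle replicate 2 lay lower than every α-GalCer library. Against vehicle the log2FC was −0.49 ± 0.108 (edgeR adjusted p = 0.00505). Over α-GalCer it was −0.28 ± 0.108 with a 95% interval from −0.52 to −0.04 and an edgeR adjusted p of 0.0682, and Wdfy4 was the gene of the 9 that was not called in that comparison. Without vehicle replicate 2 the value over α-GalCer stayed at −0.28 while its edgeR adjusted p was 0.00225, so that the fold threshold alone kept it from a call, and the fall against vehicle was −0.62 (edgeR adjusted p = 1.5e-05). Against vehicle the call was lost in 6 of 18 alternatives, without TL replicate 2 or 3, α-GalCer replicate 2 or vehicle replicate 1 or 3 and in the fit to only the 6 libraries compared, with log2FC values from −0.62 to −0.40 over all 18 and an adjusted p (edgeR, DESeq2 or limma) of up to 0.0258. Lrrc18 lies within the bounds of Wdfy4 in the RefSeq annotation, with the same limit on its reads.

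Itgam and Itgax encode the integrin chains αM and αX, known as CD11b and CD11c. With the shared β2 chain they form complement receptors that bind iC3b. CD11c is carried by all cDCs, and CD11b by cDC2, monocytes, macrophages and neutrophils. Both genes are neighbours on chromosome 1 in GRCr8, with no other protein-coding gene between them. Itgam had 784.7, 750.6 and 761.2 CPM with TLs, 465.4, 457.4 and 431.0 CPM with α-GalCer and 526.5, 437.2 and 521.0 CPM with vehicle. Itgax had 682.7, 642.5 and 672.2 CPM with TLs, 415.4, 402.6 and 368.6 CPM with α-GalCer and 482.1, 431.4 and 458.4 CPM with vehicle. For both genes the lowest TL library was above the highest of all others. Itgam rose with a log2FC of 0.63 ± 0.0718 over vehicle (edgeR adjusted p = 6.01e-05) and 0.76 ± 0.0719 over α-GalCer (edgeR adjusted p = 1.35e-05). For Itgax the values were 0.54 ± 0.0623 over vehicle (edgeR adjusted p = 6.38e-05) and 0.75 ± 0.0625 over α-GalCer (edgeR adjusted p = 5.07e-06). In RefSeq, Itgax is also an older name of the next gene along, Itgad, and the identity of the measured ID rests on the symbol that the study gives it.

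Bases at the starts that the RefSeq promoter table gives for these neighbouring genes are shown because both moved together. Those of Wdfy4 are shown because its window was the other one of the 9 with a motif match. They are RefSeq sequences of GRCr8, 5′ to 3′ on the gene's strand, with matches to the AP-1 motif TGANTCA in capitals. The first pair covers the 250 bases before the start used by the RefSeq promoter table, and the last 30 bases around a match that begins 5 bases after that start.
Itgam, chr1:192089342-192089591, plus strand: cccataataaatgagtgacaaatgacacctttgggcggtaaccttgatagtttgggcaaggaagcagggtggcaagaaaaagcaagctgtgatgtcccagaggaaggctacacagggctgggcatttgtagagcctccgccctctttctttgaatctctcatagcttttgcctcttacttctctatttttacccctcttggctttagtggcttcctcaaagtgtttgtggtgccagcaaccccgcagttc
Itgax, chr1:192149799-192150048, plus strand: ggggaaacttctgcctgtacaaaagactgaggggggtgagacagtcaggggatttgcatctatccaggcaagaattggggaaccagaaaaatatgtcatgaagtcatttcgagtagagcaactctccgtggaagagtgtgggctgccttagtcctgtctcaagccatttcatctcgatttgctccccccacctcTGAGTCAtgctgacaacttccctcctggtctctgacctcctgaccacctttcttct
Wdfy4, chr16:8456738-8456767, minus strand: cccagcacaagTGATTCAtaatgaaacact
The starts of the promoter table are the outermost annotated ones for Irf8, Naaa, Nfil3 and Ifi30. For the others the start lies inside the annotated gene, by 96 bases in Itgam, 9960 in Itgax and 16 in Wdfy4. In Itgae it lies 37 bases and in Glipr2 11234 bases inside. The windows of Itgax and Glipr2 thus lie wholly within the annotated gene. Promoter windows of 300 bases were found for all 9 genes and searched on both strands. The AP-1 motif was present in Itgax, 56 to 50 bases before the start, and in Wdfy4, which moved in opposite directions, and in 7.33% of the 33469 promoter windows of the table. It did not overlap a match to another motif searched. The interferon response motif (3.92% of all windows), the ETS core joined to an interferon response element (2.94%), the NFIL3 motif (TTACGTAA or TTATGTAA, 1.01%), the kB motif (7.51%) and the C/EBP palindrome TTGCGCAA (0.17%) were in none of the 9 windows. A match is a description of letters, and no match says only that these letters are not in the window.

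Nfil3 encodes a bZIP repressor. It stood with the genes set against cDC1 in the list, although mice need NFIL3 early in cDC1 development, where it represses Zeb2. Nfil3 had 40.6, 41.5 and 43.9 CPM with TLs, 27.5, 27.4 and 30.2 CPM with α-GalCer and 29.7, 29.6 and 29.5 CPM with vehicle. The vehicle libraries differed by less for Nfil3 than for any other of the 9 genes, and the TL libraries were apart from all others. The log2FC was 0.50 ± 0.0691 over vehicle (edgeR adjusted p = 0.000235) and 0.56 ± 0.0692 over α-GalCer (edgeR adjusted p = 1e-04).

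Glipr2 encodes a Golgi-associated protein of the CAP superfamily that is known to bind Beclin 1 and to restrain autophagy. It had 27.2, 26.3 and 26.6 CPM with TLs, 14.6, 12.5 and 17.4 CPM with α-GalCer and 15.8, 14.4 and 15.3 CPM with vehicle. The TL libraries were again above all others, and the α-GalCer libraries enclosed the vehicle ones. Its log2FC of 0.81 ± 0.114 over vehicle (edgeR adjusted p = 0.000267) was the largest rise among the 9 genes, and 5.2% of all genes tested rose more. Over α-GalCer it was 0.85 ± 0.114 (edgeR adjusted p = 0.000198).

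Ifi30 encodes the lysosomal thiol reductase GILT, which reduces disulfide bonds of endocytosed proteins for presentation on MHC class II. It was the member of the second group that moved with the cDC1 genes. Ifi30 had 463.9, 498.5 and 492.0 CPM with TLs, 681.8, 701.8 and 768.1 CPM with α-GalCer and 677.0, 867.3 and 682.8 CPM with vehicle. All TL libraries were below the others, and vehicle replicate 2 was the highest library. The log2FC was −0.61 ± 0.0923 over vehicle (edgeR adjusted p = 0.000441) and −0.57 ± 0.0922 over α-GalCer (edgeR adjusted p = 0.000767).

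The comparison of TLs with α-GalCer shares the TL libraries with that against vehicle, so its values stand beside those above and add no independent count. In it 8 of the 9 genes were DEGs, where 20.3% of all genes tested were (9.85% higher and 10.5% lower) and 75% of the genes with a symbol, and the libraries of all 9 did not overlap, where 51% of all genes did not. Between α-GalCer and vehicle 0 of the 9 genes and 0 of the 12602 genes were DEGs by edgeR, or 0% of all genes. At an unadjusted edgeR p under 0.05 there were 370 genes (2.94%), 1 of the 9 among them. DESeq2 and limma-voom also called 0 of the 9. That gene was Itgax, whose α-GalCer libraries all lay below the vehicle ones, with a log2FC of −0.21, a 95% interval from −0.35 to −0.07 and an edgeR adjusted p of 1. Libraries did not overlap in 6.74% of all genes. For the other 8 genes the log2FC of α-GalCer over vehicle lay between −0.21 (Wdfy4, 95% interval −0.45 to 0.02) and 0.04 (Naaa, −0.08 to 0.17), and the interval of Irf8 was −0.13 to 0.17. TLs were thus called against both other groups in 8 genes and against vehicle alone in Wdfy4, while α-GalCer and vehicle could not be put in order by the test for any of the 9.

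**Figure D2:**
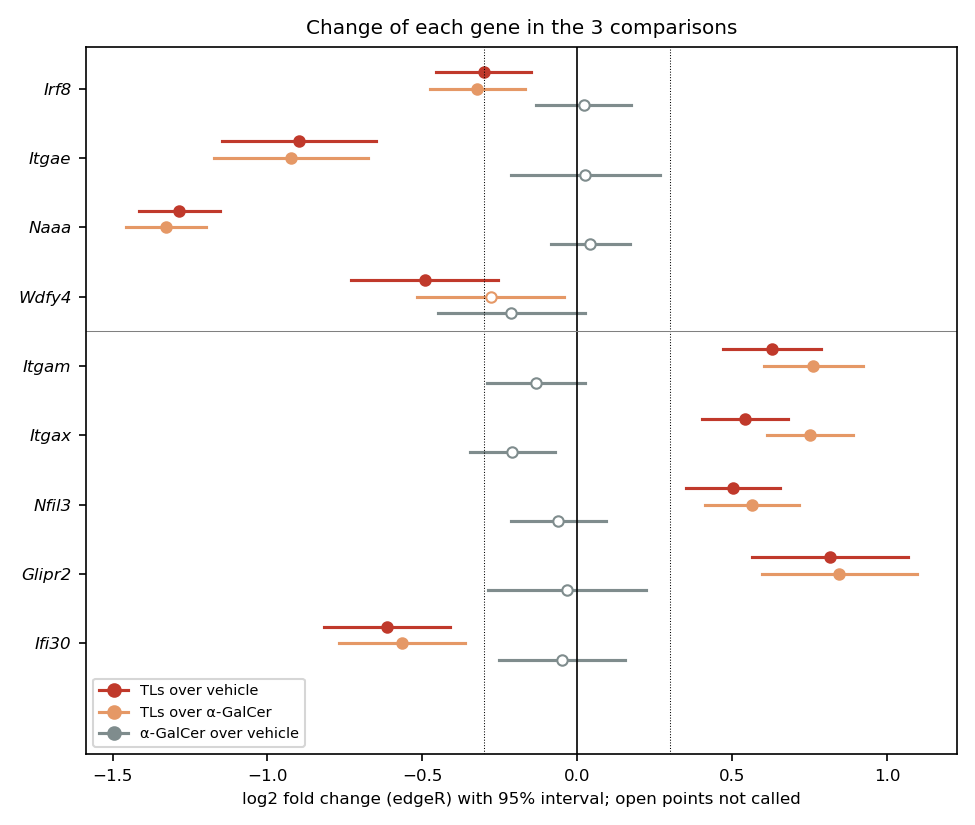
log2 fold change (horizontal axis) of each gene for TLs over vehicle (red), TLs over α-GalCer (orange) and α-GalCer over vehicle (grey), with 95% intervals from edgeR; filled points were called, open points were not, and dotted lines mark the fold threshold of 0.3. The genes above the grey line are the cDC1 genes; Naaa reaches −1.28 over vehicle and Glipr2 0.81, while all grey points are open.

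The cDC1 genes fell by unequal amounts, so each gene was also set against Irf8 within the same library, a ratio that does not depend on the scaling of libraries. The mean log2 ratio to Irf8 was higher with TLs than with vehicle by 1.11 for Glipr2, 0.94 for Itgam, 0.84 for Itgax and 0.80 for Nfil3. It was lower by 0.98 for Naaa, by 0.59 for Itgae and by 0.30 for Ifi30 (differences of −0.98, −0.59 and −0.30). In these 7 genes TL and vehicle libraries did not overlap (two-sided exact permutation p = 0.1, the smallest that 3 against 3 libraries can give, and 0.185 after adjustment over 24 ratio comparisons). For Glipr2, Itgam, Itgax and Nfil3 this was fixed in advance, since they were higher and Irf8 lower in every TL library. The ratio of Wdfy4 to Irf8 differed by −0.18 and overlapped (exact permutation p = 0.4). This rested on single vehicle libraries: the difference was −0.34 without vehicle replicate 2, where TL ratios of −0.72 to −0.56 no longer overlapped vehicle ratios of −0.40 and −0.24, and −0.06 without vehicle replicate 3. Over all other genes tested the ratio to Irf8 did not overlap in 57.3%, 49.5% higher and 7.77% lower. Naaa, Itgae and Ifi30 thus lay in the smaller of both tails, and the 4 genes with a higher ratio in the larger.

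Against α-GalCer the same ratios were higher with TLs by 1.17 for Glipr2, 1.08 for Itgam, 1.07 for Itgax and 0.88 for Nfil3, and differed by −1.01 for Naaa and −0.60 for Itgae, with no overlap and an exact permutation p = 0.1 in each. For the genes with a higher ratio this was again fixed in advance. Ifi30 (−0.24, exact permutation p = 0.2) and Wdfy4 (0.04, exact permutation p = 0.6) overlapped, the value for Wdfy4 lying between −0.01 and 0.08 when single libraries were left out. Of all other genes 56.7% did not, 49% higher and 7.69% lower.

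**Figure D3:**
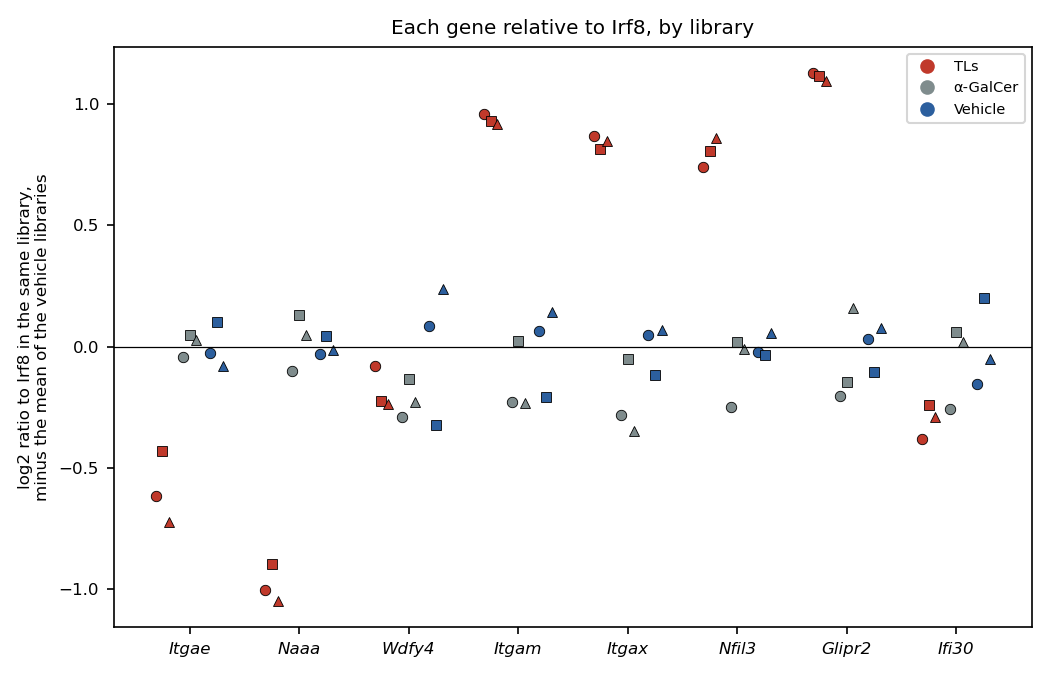
log2 ratio of 8 genes to Irf8 in the same library, from log2 CPM, minus the mean of the vehicle libraries (vertical axis), for TLs (red), α-GalCer (grey) and vehicle (blue); circles, squares and triangles are replicates 1, 2 and 3. TL points of Itgam, Itgax, Nfil3 and Glipr2 sit on average 0.80 to 1.11 above the vehicle mean, those of Itgae and Naaa 0.59 and 0.98 below it, and those of Wdfy4 lie among the other libraries.

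Each of the 5 genes of the second group can be set against each of the 4 cDC1 genes, which gives 20 ratios. With TLs 18 were higher than with vehicle without overlap, 1 was lower and 1 overlapped. The 16 ratios of Itgam, Itgax, Nfil3 and Glipr2 were all among the 18, with differences from 0.80 (Nfil3 to Irf8) to 2.09 (Glipr2 to Naaa). Their lack of overlap was fixed in advance, since each of these genes was higher and each cDC1 gene lower in every TL library. Only the ratios of Ifi30 could have come out otherwise, and the same holds against α-GalCer. The lower one was Ifi30 to Irf8 and the overlapping one Ifi30 to Wdfy4. Since the ratios share genes they are not independent, and among the ratios of any tested gene to these cDC1 genes 67.7% were higher without overlap and 3.13% lower. These shares too are over all genes tested and not over genes with a symbol. Against α-GalCer the counts were again 18, 1 and 1, with 68.1% and 4.64% over all genes, and there Ifi30 to Wdfy4 was the lower one and Ifi30 to Irf8 the overlapping one.

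Of a wider list of 12 cDC1 markers, 6 had an ID paired with a symbol, and all 6 fell against vehicle, 4 of them being the genes above. Of the 1839 tested genes with a symbol 76.6% were called, 716 higher and 693 lower (37.7%). The counts of every list below should be read against these shares. Against α-GalCer all 6 had lower values and 5 were called lower, Wdfy4 (log2FC −0.28) not being called. In that comparison 75% of tested genes with a symbol were called in either direction. Beside the 4 above, the 6 held Tlr3, the endosomal receptor for double-stranded RNA, and Ppt1, a lysosomal thioesterase. Tlr3 averaged 12.9 ± 1.77 CPM with TLs and 37.1 ± 4.56 CPM with vehicle (SD, n = 3 each), a log2FC of −1.52 ± 0.128 (edgeR adjusted p = 6.05e-06). Ppt1 had a log2FC of −0.52 ± 0.0707 (edgeR adjusted p = 0.000222). The summed level of the 6 was 623.4 to 671.7 CPM with TLs, 1044 to 1082 CPM with α-GalCer and 1072 to 1085 CPM with vehicle. Naaa had the largest part in that fall, averaging 163.6 CPM with TLs and 398.6 CPM with vehicle. Ppt1 came next, at 165.3 and 237.2 CPM. The other markers on the list, among them Xcr1, Clec9a and Batf3, the partner of IRF8, were not analysed here.

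The cDC2 markers did not move in 1 direction. Of 13 listed, 4 had an ID, and 2 rose and 2 fell. Itgam rose together with Rbpj, the DNA-binding effector of Notch signalling, which had a log2FC of 1.88 ± 0.112 (edgeR adjusted p = 4.1e-07). Clec10a, a galactose-binding lectin of human cDC2, averaged 14.3 ± 0.925 CPM with TLs and 54.6 ± 3.99 CPM with vehicle, a log2FC of −1.93 ± 0.0912 (edgeR adjusted p = 5.95e-08). Clec4a, an inhibitory lectin receptor, had 19 counts over the TL libraries and 210 over the vehicle libraries, with a log2FC of −3.32 (edgeR adjusted p = 1.25e-06). The summed level of the 4 was 1529 to 1633 CPM with TLs, 682.3 to 735.2 CPM with α-GalCer and 671.7 to 820.7 CPM with vehicle. Itgam and Rbpj made up most of it, averaging 765.5 and 784.9 CPM with TLs. With 2 rising and 2 falling, these markers do not put the second group of genes in a common cDC2 direction, and it is named here by its members. Of 7 markers listed for all cDCs, 2 had an ID: Itgax rose and Ciita fell (log2FC −0.38).

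Markers of other cell types moved with TLs as well. Of 11 monocyte and macrophage markers 6 had an ID, and 2 rose: Cd14, the co-receptor for lipopolysaccharide (log2FC 2.43), and Adgre1 (1.79). The other 4, Siglec1 (−0.85), Mertk (−0.79), Fcgr1a (−0.68) and Csf1r (−0.59), fell. Their summed level was 3220 to 3254 CPM with TLs, 1584 to 1655 CPM with α-GalCer and 1609 to 1629 CPM with vehicle, and Cd14 alone averaged 2420 CPM with TLs and 449.7 CPM with vehicle. Without Cd14 the other 5 summed to 797.1 to 831.7 CPM with TLs, 1177 to 1189 CPM with α-GalCer and 1123 to 1198 CPM with vehicle, so that the sum was higher with TLs through Cd14 and lower without it. Itgam and Itgax are carried by these cells too, and the part of these markers in the rise of either gene was not tested. Of 10 plasmacytoid markers 3 had an ID: Spib rose (log2FC 1.30), Runx2 fell (−0.67), and Ptcra, with 0 counts with TLs, 4 with α-GalCer and 4 with vehicle, did not pass the filter. The neutrophil enzyme Mpo, the member of its list of 7 with an ID, was not called (log2FC −0.22, edgeR adjusted p = 0.0113). No marker of T cells, B cells, NK cells or mast cells had an ID, and these were not analysed here.

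**Figure D4:**
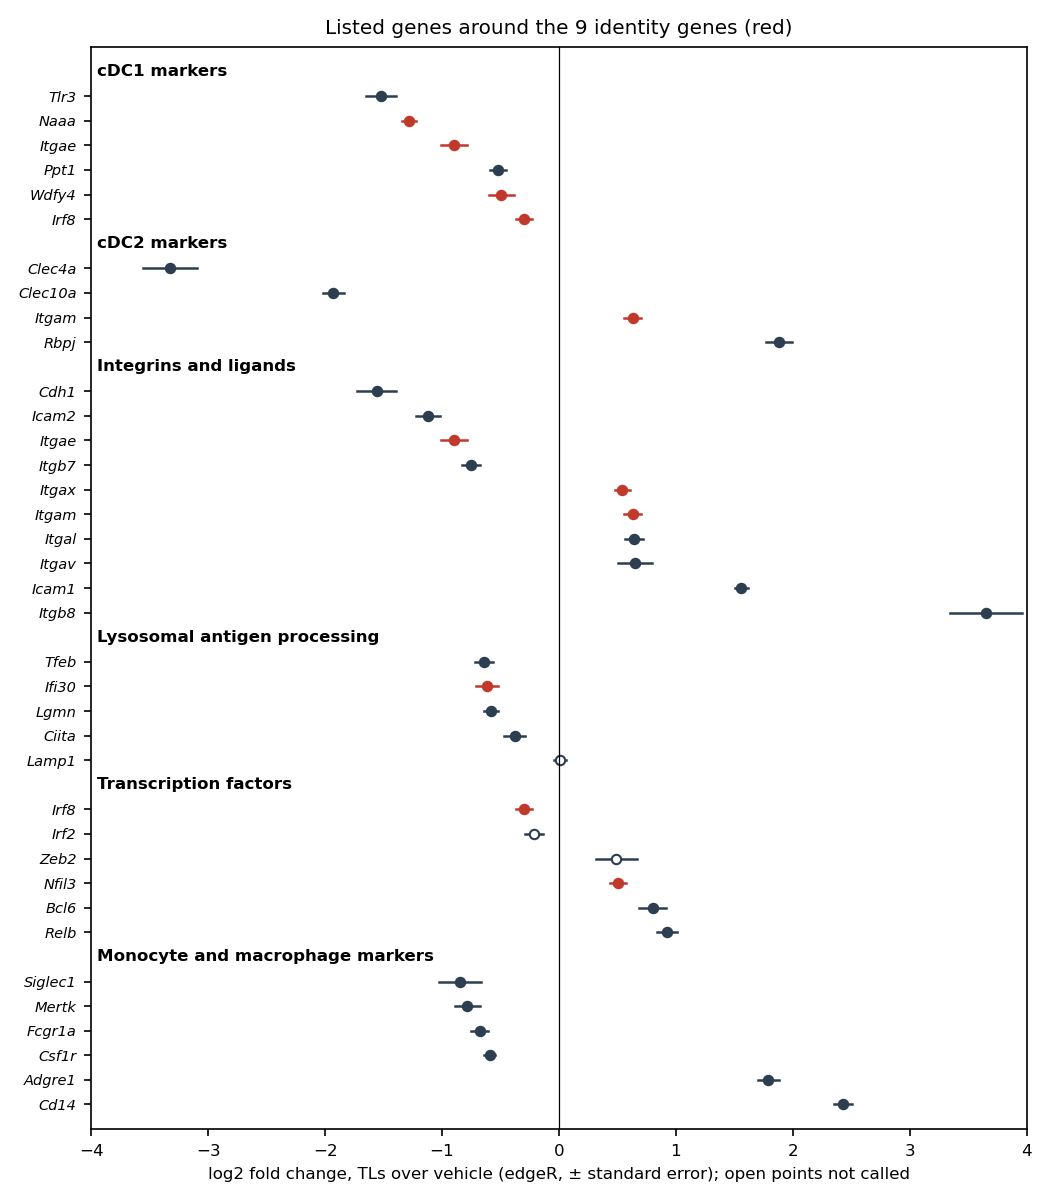
log2 fold change of TLs over vehicle (horizontal axis, edgeR, bars are ± SE) for listed genes of 6 groups, with the 9 identity genes in red, the other listed genes in dark blue and genes that were not called as open points. All 6 cDC1 markers lie below 0, while cDC2, integrin and monocyte or macrophage genes lie on both sides.

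Integrins and their ligands moved in both directions. Of 16 listed, 10 had an ID, 6 rose and 4 fell. Itgal, which encodes the αL chain of LFA-1 and pairs with the same β2 chain as CD11b and CD11c, rose with them (log2FC 0.64 ± 0.0748, edgeR adjusted p = 7.22e-05), as did Icam1, which encodes a ligand of β2 integrins, with a log2FC of 1.56 ± 0.0541 (edgeR adjusted p = 6.96e-09). Itgb2, the β2 chain itself, was not analysed here. Itgb7, the partner of CD103, averaged 52.5 ± 2.06 CPM with TLs and 88.2 ± 8.25 CPM with vehicle and fell by 0.75 on the log2 scale (SE 0.0751, edgeR adjusted p = 2.21e-05), beside a fall of Itgae by 0.90. Cdh1, which encodes E-cadherin, the ligand of that pair, fell too, with a log2FC of −1.56 ± 0.166 (edgeR adjusted p = 3.44e-05). Itgav (log2FC 0.65) and Itgb8 (3.66), the chains of the αvβ8 integrin, both rose. Icam2, which like Icam1 encodes a ligand of LFA-1, fell (−1.12).

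Among genes of lysosomal antigen processing 5 of 18 had an ID. Of these 4 fell and 0 rose, where 37.7% of tested genes with a symbol were called lower. With Ifi30 these were Lgmn, which encodes the protease legumain (log2FC −0.58, edgeR adjusted p = 3.09e-05), Tfeb, the transcription factor of lysosomal genes (−0.64, edgeR adjusted p = 1e-04), and Ciita, the MHC class II transactivator (−0.38, edgeR adjusted p = 0.00649). Lamp1, a lysosomal membrane protein gene, had 1362 ± 11.5 CPM with TLs and 1356 ± 75.3 CPM with vehicle, and its log2FC of 0.01 was not called. Against α-GalCer the same 4 genes fell.

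Of 13 genes listed for cross-presentation 4 had an ID, and Wdfy4 was the gene among them that fell. Rab43, a small GTPase, rose (log2FC 0.57, edgeR adjusted p = 0.00497), and B2m (0.09) and Psmb8 (−0.27) were not called. Among 18 transcription factors around IRF8 and NFIL3, 6 had an ID. Beside Nfil3, Bcl6 (0.80) and Relb (0.92) rose, Irf8 fell, and neither Irf2 (−0.21, edgeR adjusted p = 0.0543) nor Zeb2 (0.49, edgeR adjusted p = 0.0561) was called. Zeb2, the gene that NFIL3 represses in mice, was at 211.4 ± 26.8 CPM with TLs and 150.5 ± 41.9 CPM with vehicle. Of 5 genes of the GLIPR2 family, 3 had an ID, and the other two, Glipr1 (−0.67) and Pi16 (−1.17), fell where Glipr2 rose. In the fatty acid ethanolamide list of 8 genes Naaa was the gene with an ID. A symbol was known only where the study called the gene, so these counts are not a sample of each pathway.

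For each gene the 2 genes most alike in pattern were taken by Pearson's r of log2 CPM over the 9 libraries, among 1749 genes with a symbol. The r values describe libraries that fall into TLs and the rest, so a high r needs little more than the same direction. Irf8 was closest to Kifc1 (r = 0.987) and Gas6 (0.977), Itgae to Ephx1 (0.9945) and Slc49a4 (0.9939), Naaa to Gpd1l (0.9977) and Mnda (0.9964), and Wdfy4 to Igf2r (0.9807) and Siglec1 (0.9597). Itgam was closest to Slc23a2 (0.9966) and Itgal (0.9945), Itgax to C3 (0.9929) and C3ar1 (0.9889), Nfil3 to Gpat3 (0.9887) and Tnfrsf14 (0.9881), Glipr2 to Gorab (0.9872) and Fcrlb (0.9838), and Ifi30 to Anxa6 (0.9923) and Laptm5 (0.9898). Over the 6 libraries without TLs, r was 0.295 for Naaa with Mnda and 0.492 for Nfil3 with Tnfrsf14. For all other pairs it lay between 0.792 (Naaa with Gpd1l) and 0.976 (Ifi30 with Laptm5). Among these were Irf8 with Kifc1 (0.941) and Itgam with Itgal (0.939). None of the 9 genes was among the 2 closest of another.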

How the data were processed

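Raw read counts per Ensembl gene ID of 9 bulk RNA libraries were used as the authors deposited them. Their methods and labels state that they selected mRNA with poly-T beads, prepared NEBNext Ultra libraries, cleaned reads with fastp, mapped them to Rnor_6.0 with HISAT2 and counted them with featureCounts. Versions, the annotation release and the strand setting are not given in the sources used here. Their later correction for length and GC content and their NOISeqBIO test were not repeated.

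Tests were run in R 4.3.3 with edgeR 4.0.16 (filterByExpr, TMM, quasi-likelihood F-test, group as the only term, all 9 libraries in the fit), which was tested on simulated data. SE is the absolute log2FC divided by the square root of F. Ratios used log2 CPM with a prior count of 2. Alternatives were RLE and upper quartile scaling, DESeq2 1.42.0, limma-voom (limma 3.58.1), robust dispersion, other filters, only the libraries compared, a replicate block and leaving out each library.

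Symbols came from the study's list of genes called against vehicle, of which 1999 rows were read; 1981 IDs had a symbol and 1839 were tested. Its fold changes and p-values were not used. RefSeq tables (GRCr8) shared no ID with the counts and were joined by symbol. Named were all 9 genes, up to 4 genes per list with the smallest adjusted p, partners of the 9 and the 2 closest in pattern. Listed genes that the study names for DC subsets were named too. Ly86 and Entpd1, which it also names, were on none of the lists and are not described here. Further list members were named after their values were seen. The 9 genes and the lists were chosen with earlier results of these data known, and 1 listed gene is not reported here.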

Additional observations from a re-analysis of the deposited data

How the results depend on the processing

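Over 18 alternatives, Itgae, Naaa, Itgam, Itgax, Nfil3, Glipr2 and Ifi30 kept their direction and call with TLs against both other groups. Of 162 values over vehicle, 18 lost the call, 12 of Irf8 and 6 of Wdfy4; of 162 over α-GalCer, 5 did, all of Irf8. The genes of the 9 called with TLs numbered 7 to 9 against vehicle and 7 to 8 against α-GalCer where single libraries were left out, 8 against vehicle without vehicle replicate 2, and 7 against vehicle in the fit to only the 6 libraries compared. Upper quartile scaling gave 1002 higher and 1614 lower DEGs against vehicle (1231 and 1219 with TMM), and 1000 and 1742 against α-GalCer (1241 and 1321 with TMM), with the 9 genes called as before. Between α-GalCer and vehicle, DESeq2 called 2 genes, edgeR without a filter 2, and edgeR 0 to 1 when single libraries were left out (1 without vehicle replicate 2), none of them among the 9. In that comparison values near 0 changed sign: Irf8 was −0.045 without α-GalCer replicate 1 and −0.0091 without vehicle replicate 3 (range −0.045 to 0.091), Itgae −0.011 and −0.042 (range −0.042 to 0.10), Glipr2 0.076 without α-GalCer replicate 2 (range −0.16 to 0.076) and Ifi30 0.077 without vehicle replicate 2 (range −0.11 to 0.077); the cause was not tested. Deviations of libraries with the same replicate number correlated at −0.062 to 0.125. With 3 libraries per group this cannot decide whether the numbers pair the libraries. With the replicate block 9, 8 and 0 of the 9 genes and 2256, 2332 and 0 of all genes were called. Ratios to Irf8 kept their direction with a prior count of 0.5 and without single libraries, except that of Wdfy4 over α-GalCer (−0.01 to 0.08); that of Wdfy4 over vehicle ranged from −0.34 to −0.06. Outliers within a group could not be tested with 3 libraries.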
